A study of Mus musculus with 48 samples.

Results

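V(D)J junctions at Igh, the heavy chain locus of the mouse, were compared in a Wapl-degron pro-B line with and without auxin (IAA) and doxycycline (Dox). The libraries were chosen by their labels: the 3 full junction lists of the Wapl-degron line with IAA/Dox and the 3 without, read from baits in Ighj1 to Ighj4. These are 6 of the 48 samples of the series and 6 of its 25 full lists with a JH bait. In the assay, LAM-HTGTS, a primer at a bait segment is extended along genomic DNA and the sequence found beyond the bait end, the prey, is mapped. One read name was counted once, as 1 junction.

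All 6 libraries came from a line of pro-B cells transformed by v-Abl, whose genotype is given as Wapl-degron, OsTIR1, Emu-Bcl2 and RAG1 deficient. RAG was supplied to both groups by a RAG1/2 retrovirus. The untreated cells were held in 3 uM STI-571, an Abl kinase inhibitor, for 4 days. The treated cells had STI-571 for 1 day and then 150 uM IAA, 3 uM STI-571 and Dox, labelled as 2 mg/mL, for 3 days. No library had IAA or Dox without the degron, so the agents and the loss of Wapl cannot be told apart. The amount of Wapl protein was not measured here, the line is a single transformed line, and nothing in the labels says that the libraries came from separate cultures. The p-values therefore measure the spread between these libraries, which may be technical.

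Igh variable regions are assembled by RAG, which cuts beside VH, D and JH segments at recombination signals made of a heptamer, a spacer and a nonamer. A D segment is joined to a JH segment first and a VH segment is then joined to the DJH product. Cohesin extrudes chromatin past the RAG-bound recombination centre at JH, and Wapl is the factor that unloads cohesin. Transformed pro-B lines are known to use mostly the VH segments nearest to D. By the title and design text of the series, the comparison belongs to a study of loop extrusion and locus contraction in long-range joining.

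The locus lies on chromosome 12 (mm9), on the minus strand. The 4 JH segments span chr12:114666725-114668044, the 21 annotated D segments chr12:114668739-114766265 and the 112 annotated VH genes chr12:114812453-117238672. The VH region beyond its midpoint, called distal below, holds 49 of these genes. Recombination signals of the sites on which the results turn, read from the genome sequence on the minus strand, are shown first. They show what some of the most used sites, and Ighv1-76 with the largest fitted rise, look like. In the VH lines, 7 bases of the coding end are followed by the heptamer, a spacer of 23 bases and the nonamer. In the D lines the segment lies between a signal on each side, with spacers of 12 bases. Capitals mark heptamers and nonamers. The first pair of lines are the most used VH segments without IAA/Dox, the next 4 are sites that stood out with IAA/Dox, and the last pair are the D segments that exchanged the lead.
Ighv5-2 (chr12:114816676-114816721): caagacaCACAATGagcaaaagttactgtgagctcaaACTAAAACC
Ighv2-2 (chr12:114826439-114826484): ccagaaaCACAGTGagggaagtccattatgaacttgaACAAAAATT
Ighv8-12 (chr12:116886117-116886162): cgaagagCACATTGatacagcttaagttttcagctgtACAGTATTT
Ighv1-76 (chr12:117086053-117086098): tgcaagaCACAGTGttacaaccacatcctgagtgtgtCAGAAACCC
Site 116930100 (chr12:116930061-116930106): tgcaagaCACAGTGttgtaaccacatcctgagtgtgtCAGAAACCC
Site 115850454 (chr12:115850415-115850460): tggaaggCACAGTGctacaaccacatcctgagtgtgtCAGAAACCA
Ighd4-1 (chr12:114668711-114668777): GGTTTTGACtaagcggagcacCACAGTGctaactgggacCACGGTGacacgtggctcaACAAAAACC
Ighd1-1 (chr12:114720353-114720431): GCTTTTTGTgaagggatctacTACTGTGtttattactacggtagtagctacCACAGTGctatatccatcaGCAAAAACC

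Over the whole lines shown, coding-end bases and signal together, site 116930100 differed from Ighv1-76 at 2 of 46 bases. Site 115850454 differed from Ighv1-76 at 4 of 46, some of them in the coding-end bases. Ighv5-2 and Ighv2-2 differed from each other at 17 of 46 bases. Most VH joints lie at the coding end, so their reads hold the coding side of the VH segment and not its signal. The likeness of the signals thus says nothing about how surely reads were placed. Coding sequences were not compared beyond the coding-end bases shown, and how the alignment treated similar ones was not tested.

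Before the results, the libraries themselves need describing. The untreated libraries held 237984, 870966 and 814175 junctions and the treated ones 113088, 161891 and 122058. VH junctions numbered 1899, 7441 and 7958 without IAA/Dox and 3962, 5360 and 5664 with it. The treated list of replicate 2 has 28.4% of its lines surplus to its read names, because its Ighj1, Ighj3 and Ighj4 reads stand in the list 2 times. Untreated replicate 1 holds no junction from an Ighj2 bait, which gave 51.9% to 62.7% of the junctions of the other 5 libraries. Reads carry no molecular identifiers, so the 95% Wilson intervals of single libraries cover counting error only. Their half-widths were 0.0193 to 0.118 percentage points for the VH share of all junctions and 0.367 to 1.53 for the distal share of VH junctions.

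The treated libraries shared joints. A VH joint was called identical in 2 libraries when its VH position, its bait end and at least 8 bases between them were the same. Treated replicates 1 and 2 shared 1020 such joints, 51.5% of the distinct joints of replicate 1 and 42.4% of those of replicate 2. Replicates 1 and 3 shared 672 (33.9% and 20.03%) and replicates 2 and 3 shared 806 (33.5% and 24.0%). Untreated pairs shared 5.85% to 7.63% of the smaller library, and none of the 59 to 192 distinct distal joints that each held. Over both VH and D segments, treated replicates 1 and 2 differed by less than counting error (chi-square p = 0.621 and p = 0.798), whereas the other treated pairs differed (largest p = 5.62e-05). In treated means and SDs they are averaged into 1 sample, so these have n = 2, except that averages with each distinct junction counted once run over the 3 libraries singly. The exact permutation tests and the limma fits take all 3 treated libraries as separate, so their p-values and standard errors count replicates 1 and 2 each. The ratios of pooled shares given for single genes also sum the reads of all 3. Their exact intervals take these reads as independent and can be too narrow, given the joints shared by replicates 1 and 2. With the pair summed as 1 sample in the fit, none of the 30 segments named by rule changed its direction or its side of the threshold.

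The overlap of treated replicate 3 lay in 1 of its sequencing runs. By the read names it came from 2 runs, numbered 6 and 9 here. The run 9 part, 8.49% of its junctions but 1998 of its 5664 VH junctions, shared 45.8% of its 1446 distinct joints with replicate 1 and 55.0% with replicate 2. The run 6 part shared 1.19% and 0.987% of its 1925 distinct joints. The run 9 part also stood apart in content, with a VH share of 19.3% against 3.28% in the run 6 part and an Ighj4 bait share of 46.02% against 5.35%. Values of treated replicate 3 include the run 9 part unless stated, those of single VH segments, families and bins throughout. The VH, D, JH-region, distal, Ighd4-1 and Ighd1-1 shares, and by bait the VH share and the Ighd4-1 share of D junctions, are given without it as well, and in none of these did leaving it out make the groups overlap. Because the run 9 part shares joints with replicates 1 and 2, the 2 values behind a treated SD are not independent. Such SDs need not show the spread between separate samples. Leaving the part out moved the SD from 0.576 to 1.01 for the distal share and from 0.872 to 0.0884 for the VH share. All untreated libraries and treated replicate 2 came from run 5, and treated replicate 1 from run 4.

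**Figure D1:**
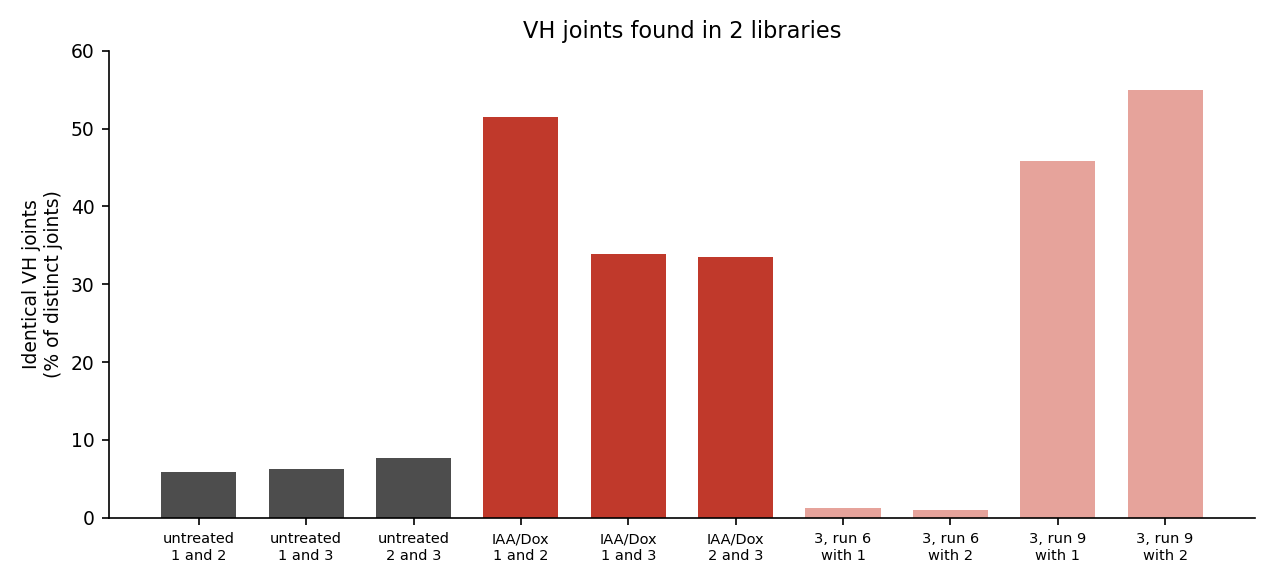
Percent of distinct VH joints found in both libraries of a pair (y axis, percent of the library with fewer joints) for untreated pairs (grey) and IAA/Dox pairs (red), and for each run of treated replicate 3 against replicates 1 and 2 (pale, percent of the joints of that run part). Untreated pairs lie between 5.85% and 7.63%, treated pairs between 33.5% and 51.5%, and the run 6 part at 1.19% and 0.987%.

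VH segments took a larger share of all junctions with IAA/Dox. They took 0.798%, 0.854% and 0.977% of the junctions in the untreated libraries and 3.50%, 3.31% and 4.64% in the treated ones. The lowest treated library was above the highest untreated one, and the means were 0.877% ± 0.0918 (SD, n = 3) and 4.02% ± 0.872 (SD, n = 2), a ratio of 4.59. Treated replicate 3 without its run 9 part stood at 3.28%, beside the other treated libraries, and the treated mean was then 3.34% ± 0.0884 (n = 2). Within run 5, the 3 untreated libraries averaged 0.877% and treated replicate 2 held 3.31%. The two-sided exact permutation test over the 3 and 3 libraries gave p = 0.1, the smallest that this design allows (adjusted p = 0.115).

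The same test was run on 38 shares and joint measures, 7 of them added after the data were seen, with Benjamini-Hochberg adjustment over all 38. In 33 of them the libraries of the groups did not overlap. No exact permutation p passed 0.05, and none could at a floor of p = 0.1, so the words higher and lower for shares describe these libraries.

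The D share was lower where the VH share was higher. D junctions took 95.3%, 96.8% and 96.3% without IAA/Dox and 88.5%, 84.5% and 82.1% with it, or 85.1% in treated replicate 3 without its run 9 part. Of D and VH junctions together, VH junctions were 0.830%, 0.875% and 1.01% without and 3.81%, 3.77% and 5.35% with IAA/Dox. The means were 0.904% ± 0.0908 (n = 3) and 4.57% ± 1.10 (n = 2), and 3.75% ± 0.0518 (n = 2) without the run 9 part. With each distinct junction counted once, the VH share of all junctions averaged 10.2% without and 28.7% with IAA/Dox, larger in both groups. There were 23.05 to 92.2 reads for each distinct D junction and 1.63 to 4.14 for each distinct VH junction. A distinct junction was a prey position, strand and bait end, whatever the bases between. Separate joints at a short D segment can thus merge, so this count can understate D, by an amount that was not tested.

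Each bait gave the same direction. Ighj1 reads had a VH share of 0.646% ± 0.0543 (n = 3) without IAA/Dox and 3.40%, 3.26% and 4.49% with it. Ighj2 reads had 1.04% ± 0.0950 (n = 2) without and 3.55%, 3.39% and 4.88% with IAA/Dox. Ighj3 reads had 0.968% ± 0.0758 (n = 3) without and 3.30%, 3.28% and 4.69% with IAA/Dox. In these 3 baits treated replicate 3 was the highest, whereas in Ighj4 reads, with 1.02% ± 0.0619 (n = 3) without and 3.897%, 2.76% and 3.41% with IAA/Dox, replicates 1 and 2 lay farthest apart. In each bait, every treated library lay above every untreated one. Without the run 9 part treated replicate 3 stood at 3.18%, 3.28%, 3.18% and 3.96% for Ighj1 to Ighj4, again without overlap.

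With IAA/Dox, VH junctions lay farther from D. The distal share of VH junctions was 4.95%, 4.46% and 2.87% without IAA/Dox and 58.4%, 58.0% and 57.4% with it. The groups were far apart, at 4.09% ± 1.09 (n = 3) and 57.8% ± 0.576 (n = 2), exact permutation p = 0.1 (adjusted p = 0.115). Treated replicate 3 stood at 56.8% without its run 9 part, which shares joints with replicates 1 and 2. The treated mean was then 57.5% ± 1.01 (n = 2). With each distinct junction counted once, the distal share averaged 9.37% without and 56.8% with IAA/Dox. The median VH junction lay 158 kb from the JH region in every untreated library, at Ighv2-2, and 1736, 1716 and 1716 kb from it in the treated ones. The effective number of VH segments, the inverse of the summed squared shares, was 4.36, 4.39 and 4.42 without and 44.1, 44.1 and 48.8 with IAA/Dox. It averaged 10.7 without and 59.7 with IAA/Dox when each distinct junction was counted once. In 1000 VH junctions, 57.5 ± 3.93 (n = 3) segments were expected without and 132 ± 2.85 (n = 2) with IAA/Dox.

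**Figure D2:**
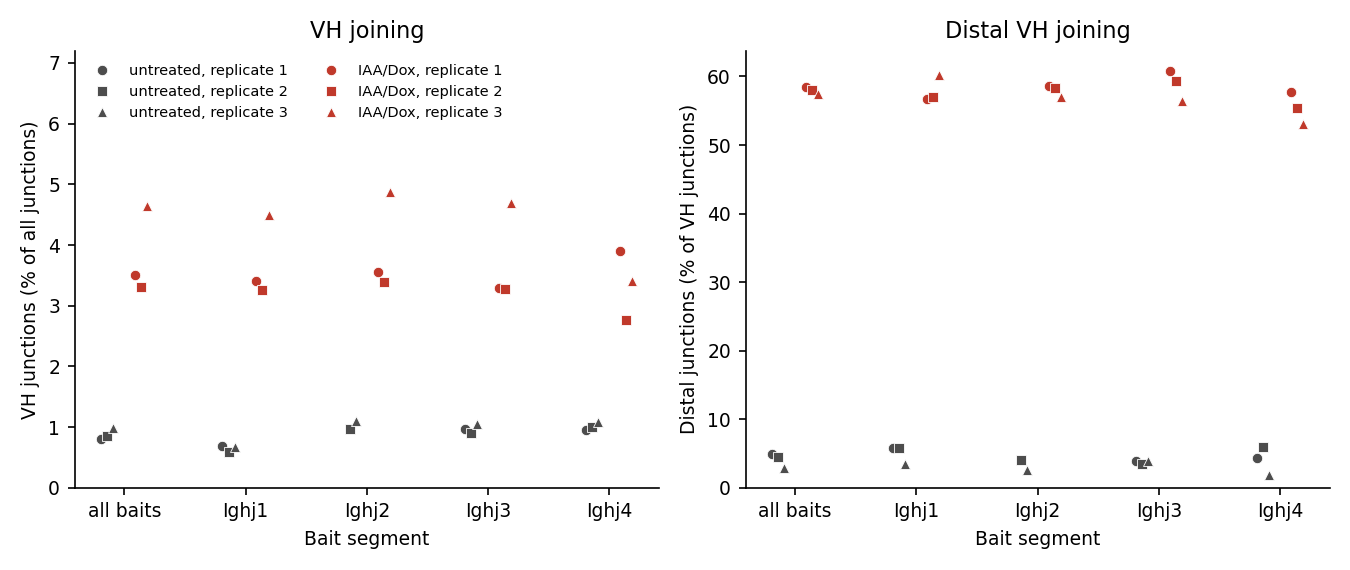
VH junctions as percent of all junctions (left) and distal junctions as percent of VH junctions (right), for all baits and for each bait segment, with 1 point per library (grey untreated, red IAA/Dox, symbol by replicate). Untreated replicate 1 has no Ighj2 point. In both panels the treated libraries lie above the untreated ones for every bait.

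The difference was graded along the locus. In the 100 kb nearest to D, VH junctions took 0.701% of all junctions on average without and 0.249% with IAA/Dox, a ratio of 0.355. In the next bin the ratio was 1.14 and the libraries overlapped. The following bins had ratios of 3.52, 5.72 and 16.7, and from 644 kb to the far end every bin had a ratio of 19.8 or more, up to 739 in the bin from 1944 kb, which held 1 untreated junction in all. The first bin held 79.9% ± 0.711 (n = 3) of VH junctions without and 6.17% ± 0.0920 (n = 2) with IAA/Dox.

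The treated profile was uneven as well. The bin from 2344 kb held the most VH junctions with IAA/Dox, 9.92% ± 0.644 (n = 2), followed by the bin from 844 kb with 8.85% ± 0.309 (n = 2). The bin from 1944 kb held 0.708% ± 0.0529 (n = 2), the least. The bins from 844 kb and 1144 kb stood above both of their neighbours in both groups.

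**Figure D3:**
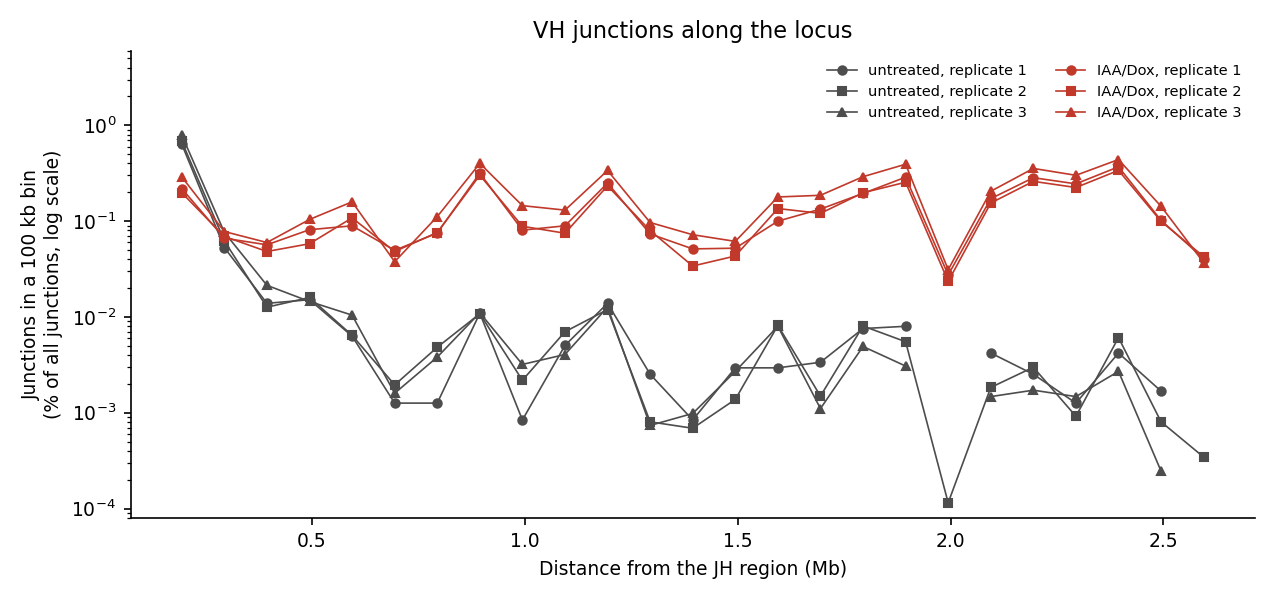
Junctions per 100 kb bin of the VH region, as percent of all junctions on a log axis, against distance from the JH region in Mb, with 1 line per library (grey untreated, red IAA/Dox). Bins with no junction are not drawn. The lines cross in the second bin, and beyond it all treated libraries lie above all untreated ones.

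Single segments were compared with limma voom on the junction counts of all 3 and 3 libraries, with all junctions of a library as its size, over the 139 VH and D segments with at least 10 junctions. VH segments were clusters of junction positions, each named by an annotated gene within 20 bp. The 10 junctions were summed over both groups, so a segment with few untreated junctions was tested only through its treated ones. A rise was favoured among such segments, and the counts of segments that rose lean on this. Of the 139, 123 passed an adjusted p of 0.05, which is 88.5%, with 83.5% higher and 5.04% lower with IAA/Dox. In 89.2% of the 139 the libraries of the groups did not overlap. Among the 121 VH segments 109 rose, 5 fell and 7 did not pass, which does not show these 7 to be unchanged, with a median log2 fold change of 4.94 (4.56 with the 18 segments that had no untreated junction set at their lower bound). With treated replicates 1 and 2 summed as 1 sample, 109 VH segments rose and 5 fell as well, and 100 rose and 5 fell with the run 9 reads left out too. The fit borrows its spread across segments, and the standard errors and the very small p-values both rest on that shared spread.

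These counts depend on the scale. On the scale of VH junctions alone, which sets segments against each other, 100 VH segments rose and 12 fell at a median of 2.82. Quantile normalization centred the change further and gave 34 higher and 18 lower at a median of 0.32.

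The 5 segments that fell were those nearest to D: Ighv5-2, Ighv2-2, Ighv5-4, Ighv2-3 and Ighv5-6, which lie 149 to 196 kb from the JH region. They also fell under both other scalings. Ighv5-2 (chr12:114816715-114817201) is the annotated gene nearest to D with at least 10 junctions. It took 0.335%, 0.357% and 0.403% of all junctions without IAA/Dox and 0.111%, 0.0970% and 0.128% with it, without overlap. The limma fit put its change at -1.74 in log2 (SE 0.19, adjusted p = 9.66e-18), and its share of VH junctions went from 41.7% ± 0.394 (n = 3) to 2.90% ± 0.204 (n = 2).

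Ighv2-2 (chr12:114826478-114826911), the neighbour of Ighv5-2, took 0.161%, 0.171% and 0.199% without and 0.0566%, 0.0568% and 0.0688% with IAA/Dox. The groups did not overlap, and the log2 fold change was -1.57 (SE 0.23). Ighv5-4, Ighv2-3 and Ighv5-6 changed by -1.46 (SE 0.34), -1.68 (SE 0.40) and -2.23 (SE 0.48), again without overlap between groups. Ighv5-12, the next most used segment without IAA/Dox, lay 272 kb from JH and did not pass, with overlapping libraries and a limma estimate of -0.43 (SE 0.35, adjusted p = 0.249), although it fell under both other scalings. Together these 6 segments held 83.1% ± 0.571 (n = 3) of VH junctions without IAA/Dox and 6.49% ± 0.135 (n = 2) with it.

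The families to which these segments belong did not move as one. Of the 20 annotated Ighv5 and Ighv2 genes 17 were tested, and 5 fell, 5 rose and 7 did not pass, at a median of 0.52. The 5 that rose (Ighv5-9, Ighv2-6-8, Ighv5-16, Ighv5-17 and Ighv2-9) lie 232 to 449 kb from JH, farther than the 5 that fell. Ighv5-16 had the largest change of them, 3.45 (SE 0.57). The direction of these 5 depends on scale: on VH junctions 1 of the 17 rose and 12 fell, and with quantile normalization none rose and 16 fell. In each group of segments described next every tested member rose, under a minimum of 10 junctions that treated counts alone could meet. These counts stand beside 109 of 121 for VH segments as a whole and 83.5% higher over all 139 segments, and no group was tested against the rest. In sum Ighv5 and Ighv2 took 0.707%, 0.761% and 0.894% of all junctions without and 0.370%, 0.340% and 0.462% with IAA/Dox.

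The middle families, which lie between Ighv5 and Ighv2 on one side and most Ighv1 genes on the other, have 28 annotated genes. All 23 tested rose, at a median of 4.56, and 21 rose on the scale of VH junctions, whereas quantile normalization called 2 higher and 2 lower. They took 0.0282%, 0.0333% and 0.0317% of all junctions without and 0.563%, 0.539% and 0.778% with IAA/Dox. Their share of VH junctions was 3.56% ± 0.329 (n = 3) and 16.5% ± 0.417 (n = 2).

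Ighv12-3 (chr12:115604737-115605165) was the most used of the middle families, at 0.00462%, 0.00299% and 0.00381% without and 0.143%, 0.134% and 0.147% with IAA/Dox. All treated libraries lay far above all untreated ones, and the log2 fold change was 5.29 (SE 0.38). The leading genes of 4 other families changed by 5.87 (SE 0.59, Ighv6-6), 4.97 (SE 0.62, Ighv14-4), 4.96 (SE 0.71, Ighv9-3) and 4.56 (SE 0.55, Ighv3-8). Ighv15-2 changed by 4.29 (SE 0.60). Under quantile normalization none of these 5 passed, at 1.72, 0.53, 0.05, 0.48 and 0.07 (limma adjusted p = 0.162, 0.376, 0.983, 0.373 and 0.918). Smaller changes were seen at Ighv10-1 (3.67, SE 0.49), Ighv11-2 (3.61, SE 0.47) and Ighv4-1 (3.30, SE 0.58), which all rose here but were at -0.26, -0.06 and -0.99 under quantile normalization. Ighv7-1, at 467 kb the nearest to D of these genes, changed by 1.87 (SE 0.44), with -0.14 on VH junctions and -1.97 under quantile normalization.

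Ighv1, the largest family of the locus, makes up most of its distal part. Of 56 annotated genes 46 were tested and all 46 rose, at changes of 4.02 to 8.70 and a median of 5.96 (5.29 with the 10 genes without an untreated junction at their lower bound). All 46 also rose on VH junctions, and quantile normalization called 22 higher and none lower. The family took 0.0315%, 0.0325% and 0.0227% of all junctions without and 1.33%, 1.26% and 1.78% with IAA/Dox, a ratio of 53.2. Junctions were seen at 37 of its genes without and 52 with IAA/Dox, and over all 112 VH genes at 82 and 102. The treated libraries held fewer junctions of all kinds, but their VH junctions (3962 to 5664) lay within the untreated range (1899 to 7958).

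Ighv1-54 (chr12:116431886-116432319) was the most used Ighv1 gene with IAA/Dox. It took 0.00588%, 0.00654% and 0.00319% without and 0.114%, 0.106% and 0.149% with IAA/Dox, a log2 fold change of 4.64 (SE 0.36) between groups that did not overlap. The Ighv1 genes with the largest changes had next to no untreated junctions. Ighv1-76 (chr12:117086092-117086385) had 1, 0 and 1 untreated junctions and 86, 112 and 105 treated ones, a ratio of pooled shares of 734 (exact 95% interval 201 to 6087, counting error only). Ighv1-75 had 0, 2 and 0 against 45, 70 and 72, a ratio of 453 (124 to 3767). Ighv1-67 had 0, 1 and 0 against 34, 54 and 54, a ratio of 688 (121 to 27356).

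Ighv1-80 and Ighv1-83 had no untreated junction in any library. Ighv1-80 had 31, 35 and 36 treated junctions and was at least 41.1-fold higher, taking 3 counts in each untreated library as the floor. Ighv1-83 had 27, 39 and 21 and was at least 31.3-fold higher. Ighv1-85 (chr12:117238239-117238672), the most distal gene at 2570 kb from JH, had 0, 3 and 0 untreated and 38, 59 and 36 treated junctions, a ratio of 215 (71.9 to 1054).

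Ighv8 genes lie interspersed among the distal Ighv1 genes. All 5 tested of 8 annotated rose, beside 109 of all 121 VH segments, at a median of 5.96 against 4.94 over the 121 (5.55 with the 1 gene without an untreated junction at its bound). They all rose on VH junctions, and 4 did under quantile normalization. Ighv8-12 (chr12:116886172-116886572) took 0.00210%, 0.00218% and 0.000983% without and 0.193%, 0.179% and 0.245% with IAA/Dox. It held the largest share of any annotated gene in the treated libraries, 5.37% ± 0.125 (n = 2) of VH junctions against 0.206% ± 0.0918 (n = 3). Its change was 6.89 in log2 (SE 0.48). Ighv8-8 changed by 5.55 (SE 0.42), from 0.00300% ± 0.00132 (n = 3) to 0.130% ± 0.0184 (n = 2).

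Many treated junctions fell at sites to which the mm9 annotation used here gives no VH gene. Such sites held 2.58%, 2.43% and 2.59% of VH junctions without and 22.8%, 23.8% and 23.9% with IAA/Dox. All 30 tested rose, at a median of 4.85 (4.27 with the 7 without an untreated junction at their bound), and with quantile normalization 6 did. Most of the 30 had fewer than 10 untreated junctions. They were tested through their treated junctions, which favoured a rise, so this count is no result about the sites. A heptamer of the form CACNNTG, sought from 2 bases before to 10 after the joint on the strand of the genes, was found at 22 of the 30 (73.3%). It was found at 88 of the 91 tested annotated genes (96.7%) and at 1.51% of all positions of the VH region.

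Site 116930100 (chr12:116930093-116930134) led all segments in the treated libraries. It took 0.000840%, 0.000804% and 0.00135% without and 0.229%, 0.214% and 0.279% with IAA/Dox, which is 6.26% ± 0.336 (n = 2) of treated VH junctions. Its log2 fold change was 7.78 (SE 0.53). The site lies between Ighv8-12 and Ighv1-71, where RefSeq's gene order lists Ighv1-70 alone, but the coordinates of that table are of another build and were not used, so the site was not named. Site 115850454 (chr12:115850443-115850481), between Ighv1-9 and Ighv1-12, took 0.00798%, 0.00815% and 0.00946% without and 0.157%, 0.162% and 0.185% with IAA/Dox, a log2 fold change of 4.27 (SE 0.29). The 6 most used segments with IAA/Dox, which also include Ighv8-12, Ighv12-3, Ighv8-8 and Ighv1-54, held 26.1% ± 1.84 (n = 2) of treated VH junctions and 2.70% ± 0.569 (n = 3) of untreated ones.

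**Figure D4:**
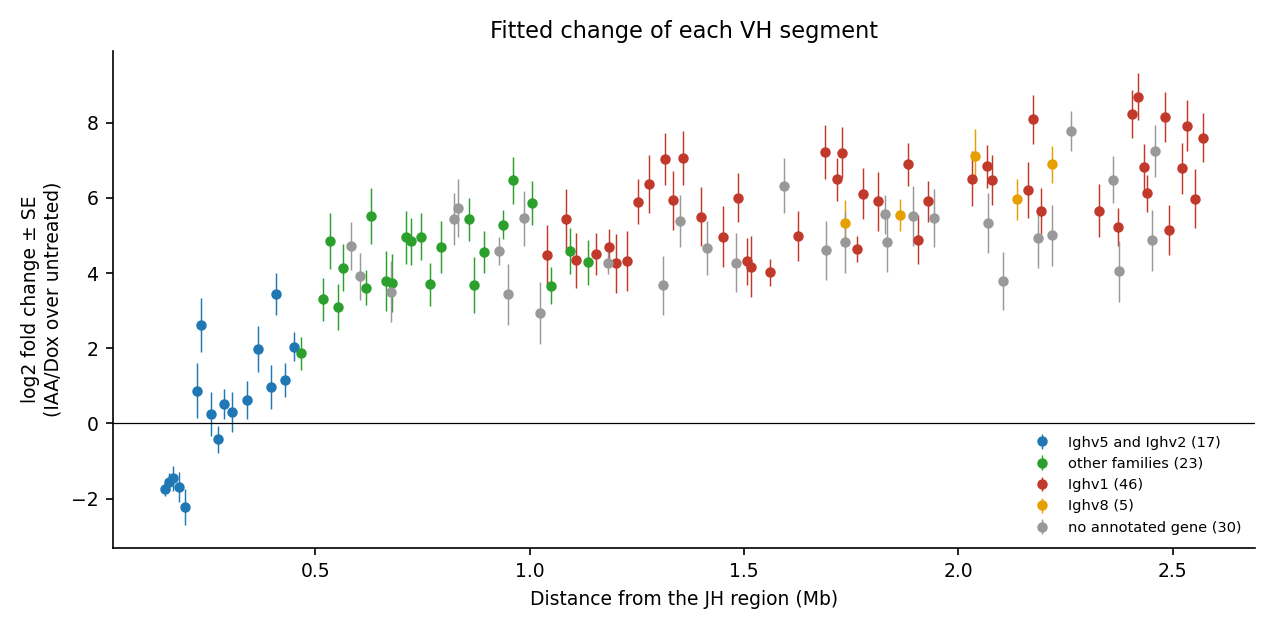
Fitted log2 fold change (IAA/Dox over untreated, all junctions as the library size) of each tested VH segment with its standard error, against distance from the JH region in Mb, coloured by family with the number tested in brackets. The 5 segments below 0 that passed the test lie 149 to 196 kb from JH, and every segment farther than 272 kb lies above 0.

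D segments changed as well, and the lead passed from Ighd1-1 to Ighd4-1. Ighd4-1 is the D segment nearest to JH, at 0.695 kb, and Ighd1-1 lies 52.3 kb away, with 3 D segments beyond it. Ighd4-1 took 9.46%, 13.1% and 12.8% of D junctions without IAA/Dox and 62.6%, 62.8% and 60.6% with it. Ighd1-1 took 78.6%, 75.7% and 76.3% without and 22.9%, 22.7% and 23.1% with IAA/Dox. Without the run 9 part treated replicate 3 stood at 62.6% for Ighd4-1 and 22.8% for Ighd1-1. Neither overlapped between groups (p = 0.1 in each exact permutation test, 0.115 after adjustment). As shares of all junctions, the log2 fold change of Ighd4-1 was 2.15 (SE 0.04) and that of Ighd1-1 was -1.93 (SE 0.05). On VH junctions, the scale that sets D against VH segments, Ighd4-1 did not pass (0.12, SE 0.17, limma adjusted p = 0.487) and Ighd1-1 was at -4.03 (SE 0.17).

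Both D shares depend on the bait. Ighd4-1 held 8.91% ± 0.572 (n = 3) of D junctions of Ighj1 reads without and 47.3%, 47.7% and 47.6% with IAA/Dox. In Ighj2 reads it held 17.0% ± 0.198 (n = 2) without and 69.9%, 70.1% and 69.2% with IAA/Dox, and in Ighj3 reads 10.6% ± 1.01 (n = 3) and 59.6%, 60.2% and 58.8%. In Ighj4 reads it held 4.03% ± 0.497 (n = 3) without and 17.6%, 16.7% and 18.3% with IAA/Dox, so that Ighd1-1 with 41.5%, 41.3% and 42.1% still led there. Without the run 9 part treated replicate 3 stood at 48.2%, 70.4%, 60.9% and 18.4% for Ighd4-1 in Ighj1 to Ighj4 reads. With Ighj2 reads left out of all libraries the Ighd4-1 share was 8.77% ± 0.669 (n = 3) and 48.2% ± 1.15 (n = 2). With each distinct junction counted once, Ighd4-1 held 10.6% and 24.2% of D junctions on average and Ighd1-1 25.4% and 20.3%. In that count separate joints at a short D segment can merge, so it is not a count of joining events.

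The stretch between Ighd4-1 and Ighd1-1, which holds 16 annotated D segments, took 11.5%, 10.7% and 10.4% of D junctions without and 14.4%, 14.3% and 16.1% with IAA/Dox, or 14.5% in treated replicate 3 without its run 9 part. With each distinct junction counted once it averaged 49.0% without and 53.2% with IAA/Dox. Of the 16 segments 15 were tested, and 7 passed, 6 of them higher and 1 lower with IAA/Dox. Beside this, 9 of the 18 tested D segments passed. Over all 139 VH and D segments 88.5% passed, 83.5% higher and 5.04% lower. The 6 higher ones were Ighd2-7 (0.92, SE 0.16), Ighd2-8 (0.73, SE 0.09), Ighd3-2 (0.53, SE 0.14), Ighd2-6 (0.52, SE 0.14), Ighd2-5 (0.39, SE 0.14) and Ighd2-4 (0.30, SE 0.10). Ighd2-5 and Ighd2-4 did not pass with the sequencing run as a block (limma adjusted p = 0.260 and 0.140). Ighd6-1 was the lower one, at -0.47 in log2 (SE 0.20, limma adjusted p = 0.0172). It took 0.160%, 0.176% and 0.190% of D junctions without and 0.139%, 0.134% and 0.165% with IAA/Dox, with overlapping libraries. It did not pass without treated replicate 1 (adjusted p = 0.0724) or 2 (0.109), with these summed as 1 sample (0.0589) or with D and VH junctions as library size (0.101). Ighd2-3, the most used of them, took 5.77%, 5.16% and 4.75% of all junctions without and 4.99%, 4.75% and 4.98% with IAA/Dox, with overlapping libraries. The baits did not move as one. As a share of D junctions, Ighd2-3 went from 4.85%, 4.43% and 4.21% to 6.999%, 6.90% and 7.45% in Ighj1 reads and from 8.52%, 8.05% and 7.30% to 17.4%, 18.5% and 17.1% in Ighj4 reads, higher without overlap in both. In Ighj2 reads it was lower without overlap, at 5.19% and 4.74% without and 4.49%, 4.45% and 4.42% with IAA/Dox, and in Ighj3 reads the libraries overlapped. With Ighj2 reads left out of all libraries it passed, at 0.24 in log2 (limma adjusted p = 0.00364). These directions depend on the counting and the scale. With each distinct junction counted once none of the 6 higher segments passed, and 1 D segment rose and 8 fell in all. Separate joints at a short D segment can merge in that count, and the VH share is larger, which lowers D shares of all junctions. On VH junctions all 6 fell, among 17 D segments that did, and with quantile normalization Ighd2-7 alone of the 6 passed. Positions of the D region beyond Ighd1-1, most of them outside its 3 D segments, held 0.516% ± 0.0183 (n = 3) and 0.136% ± 0.0534 (n = 2) of D junctions.

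The bases between the bait end and the VH end show which D segment a VH joint holds. A D segment was called where at least 7 of these bases matched it exactly, on joints in deletional orientation. Such a match was found in 79.9%, 80.2% and 80.3% of VH joints without and 71.2%, 71.4% and 70.9% with IAA/Dox. Joints with fewer than 7 bases to match made up 15.4% ± 0.953 (n = 3) and 20.9% ± 0.570 (n = 2), and the mean number of bases between bait and VH was 12.6 ± 0.248 (n = 3) and 11.6 ± 0.00201 (n = 2).

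In these VH joints Ighd4-1 was a minor segment in both groups. It was matched in 2.56%, 2.41% and 2.05% of joints with a match without IAA/Dox and in 6.91%, 7.06% and 8.52% with it. Ighd1-1 was matched in 66.8%, 68.1% and 70.5% without and 47.1%, 46.1% and 48.5% with IAA/Dox. Ighd2-3 was matched in 10.6%, 10.99% and 10.8% without and 19.8%, 21.2% and 19.0% with IAA/Dox. Over all baits none of the 3 overlapped between groups (exact permutation p = 0.1, adjusted p = 0.115 each), and their order was the same in both groups, unlike that of D junctions. By bait, Ighd1-1 and Ighd2-3 did not overlap in any of the 4. Ighd4-1 was apart in Ighj1 reads, at 0.668%, 1.21% and 0.652% without and 3.95%, 5.19% and 7.47% with IAA/Dox, and in Ighj2 reads, at 2.61% and 2.59% without and 8.73%, 8.998% and 10.4% with it. It overlapped in Ighj3 reads, at 5.70%, 4.02% and 2.34% without and 5.19%, 3.84% and 5.60% with IAA/Dox, and in Ighj4 reads, at 1.76%, 0.926% and 0.688% without and 0.763%, 0.498% and 2.21% with it.

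Ighd4-1 is short, so trimming can bring it under the 7 bases needed. In D junctions at Ighd4-1, trimmed on the JH side alone, 88.8% ± 1.57 (n = 3) without and 87.4% ± 0.353 (n = 2) with IAA/Dox kept at least 7 bases, and trimming on the VH side could not be measured. Among distal VH joints the Ighd4-1 share was 1.37%, 0.656% and 0% without and 7.85%, 8.02% and 9.23% with IAA/Dox. Among proximal ones it was 2.62%, 2.51% and 2.11% without and 5.61%, 5.83% and 7.59% with IAA/Dox.

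**Figure D5:**
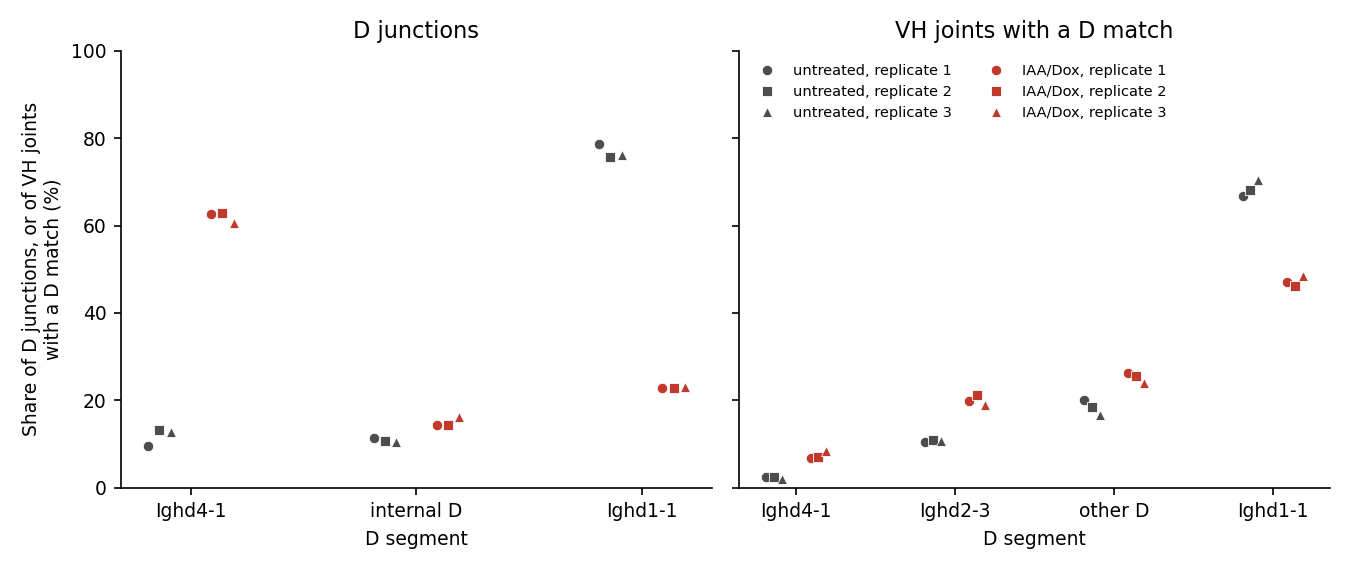
D segments as percent of D junctions (left) and as percent of VH joints with a D match (right), with 1 point per library (grey untreated, red IAA/Dox, symbol by replicate). Ighd4-1 leads D junctions with IAA/Dox at 60.6% to 62.8%, while Ighd1-1 leads VH joints in both groups.

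Most prey had 1 orientation in both groups. Prey in the VH region lay on the minus strand, opposite to the deletional orientation of most junctions, in 2.21%, 1.89% and 1.26% of VH junctions without and 1.62%, 1.51% and 1.54% with IAA/Dox, with overlap. In D the minus-strand share was 0.0908%, 0.0894% and 0.0828% without and 0.221%, 0.218% and 0.285% with IAA/Dox (0.197% in replicate 3 without its run 9 part), without overlap. With each distinct junction counted once, the minus-strand share averaged 3.56% without and 1.92% with IAA/Dox in VH. In D it then averaged 2.62% and 3.17%. Trimming of the VH end was slight: the joint lay 1.76 ± 0.0736 (n = 3) bases from the heptamer without and 1.499 ± 0.0723 (n = 2) with IAA/Dox. D joints carried bases that match neither end in 20.3%, 23.6% and 23.4% without and 33.1%, 33.4% and 33.9% with IAA/Dox, but with each distinct junction counted once the averages were 59.2% and 54.4%, the other way round.

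The share of prey within the JH region was also higher. It took 2.75%, 1.55% and 1.82% of all junctions without and 7.15%, 8.38% and 8.97% with IAA/Dox, or 7.16% in treated replicate 3 without its run 9 part. In Ighj4 reads it took 4.71% ± 1.24 (n = 3) and 44.8% ± 2.37 (n = 2), or 39.7% ± 9.60 (n = 2) without the run 9 part. Bait and prey alignments that overlap by at least 10 bases made up 45.4% ± 5.35 (n = 3) and 85.5% ± 0.861 (n = 2) of these junctions. With each distinct junction counted once the JH-region share averaged 7.31% without and 4.91% with IAA/Dox. The part of repeated copies and of overlapping alignments in this difference was not tested.

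The interval between D and VH held few junctions, and a smaller share with IAA/Dox. It took 0.0282%, 0.0325% and 0.0286% without and 0.0141%, 0.00927% and 0.0123% with IAA/Dox (0.00716% in replicate 3 without its run 9 part), from 67, 283 and 233 against 16, 15 and 15 junctions. In each library 98.3% or more of them lay within 20 bp of position 114811138, where a heptamer was found. RefSeq's gene order lists Ighv5-1 and Ighv2-1 between D and Ighv5-2.

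A derivative labelled Single Igh, otherwise of the same genotype and under the same agents and times, has 3 untreated and 3 treated libraries of its own. Its VH share was 1.10% to 1.53% without and 4.56% to 4.94% with IAA/Dox, and its distal share 3.70% to 4.43% and 53.2% to 57.5%. Of 153 segments 138 passed (90.2%), 84.3% higher and 5.88% lower, and 100 of the 109 VH segments that rose and all 5 that fell in the Wapl-degron line did so there too. An interaction term over the 12 libraries called none of 176 segments (lowest limma adjusted p = 0.0629), with 17 at an unadjusted p under 0.05, which does not show that the lines respond alike. Ighd4-1 changed by 1.86 (SE 0.19) and Ighd1-1 by -1.37 (SE 0.18) in that line, and the difference from the Wapl-degron line was 0.30 (SE 0.18) and -0.54 (SE 0.16, limma adjusted p = 0.106). Treated replicates 1 and 3 of that line share 63.2% of their joints, and their baits differ from those of the other libraries.

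Other cells, with 3 full junction lists each, give the scale of these values, with no test made. The parental v-Abl line (OsTIR1, Emu-Bcl2, RAG1 deficient, given RAG1/2 retrovirus and 4 days of STI-571, with no Wapl degron) had distal shares of 3.75% to 4.78% of VH junctions, and primary WT bone marrow pro-B cells, selected with anti-B220 beads and grown with IL-7 and SCF, had 31.5% to 36.5%. A further bone marrow replicate was not used here, since no full list of it was analysed. The genotype of the bone marrow cells is labelled C57BL/6, RAG1 deficient, although they hold VH joints. Of D and VH junctions, VH junctions were 0.880% to 1.29% in the parental line and 48.1% to 51.0% in bone marrow, so the treated Wapl-degron libraries lay above bone marrow in the distal share and far below it in the share of completed VH joining. Ighd4-1 held 7.08% to 8.48% of D junctions in bone marrow.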

How the data were processed

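Junction lists of 6 libraries of genomic DNA were analysed. Per the labels and the submitters' processing notes, the authors deposited positions of bait and prey aligned to mm9, with Bowtie2 among the tools; filters were not given in the sources used here. Counts were made here from those positions, each read name once. Members, gene lists and tests were chosen with earlier results of these data known.

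Annotation was GENCODE M1, with older names updated through RefSeq synonyms. Positions of all 25 JH-bait lists were joined over gaps of up to 20 bp into 706 segments. Prey counted as D within 5 bp of the D region. Shares were compared by exact permutation tests over libraries (Python 3.11.15 with pandas 2.3.3, scipy 1.17.1 and numpy 2.4.6) and segments by limma 3.58.1 (voom, prior count 0.5, R 4.3.3), on counts made here, without count models. Plots used matplotlib 3.10.9 and sequences pysam 0.24.0. The fit was also run on simulated counts, where many of the smaller changes were not recovered. Their means were taken over both groups, so segments with next to no untreated junctions were not mirrored.

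Named VH segments are the 6 most used in each group, the 6 largest changes in each direction among called segments without overlap (5 fell), the most used of each family with IAA/Dox, and the nearest and farthest genes. Named D segments are Ighd4-1, Ighd1-1 and the most used internal one. Other segments were named after their values were seen.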

Additional observations from a re-analysis of the deposited data

How the results depend on the processing

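Each comparison was repeated under other ways of counting, scaling and grouping; the alternatives by bait, without Ighj2 reads, without the run 9 part, with treated replicates 1 and 2 as 1 sample, and with other D bounds or match lengths were chosen after seeing the data. Of 631 repeats of the 38 shares, 11 changed sign, as differences (IAA/Dox minus untreated) in percentage points, with the 3 treated libraries taken singly. The 631 include those with the replicate number as a block, which could not change sign because their value equals the difference of means. With each distinct junction counted once, the JH-region share was at -2.40, the share outside chromosome 12 at -3.43, D joints with added bases at -4.78 and D joints with shared bases at 2.48. The minus-strand share of VH junctions was at 0.308 with Ighj2 and 0.0599 with Ighj4 baits alone, and VH joints with added bases at -0.416 with Ighj2 alone. The Ighj1 bait share of VH junctions ranged from -13.4 to 2.59 with 1 library left out, positive without untreated replicate 1, and was 8.18 without Ighj2 reads. Without Ighj2 reads the Ighj1 and Ighj3 bait shares of D junctions were at 3.03 and 0.811. No other share changed sign on this basis. With treated replicates 1 and 2 averaged, as in the report's means, there were 593 repeats, which leave out those with the replicate number as a block. Of these, 11 changed sign as well. The minus-strand share with Ighj4 baits then kept its sign (-0.161), and VH joints with added bases lost theirs without untreated replicate 1 (-0.0259).

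Leaving out 1 library gave 100 to 114 VH and 8 to 10 D calls. Of the VH segments tested, quantile normalization called 52 of 121, a minimum of 1 junction 253 of 272 and of 100 junctions 50 of 56, beside 114 of 121; both minima change how many are tested. VH junctions as the library size called 17 D segments. Of 656 repeats of the 30 named segments, 638 kept direction and side of the threshold, 7 fell short of it, 4 newly passed it and 7 changed sign. The sign changes were, in log2, Ighv10-1 (-0.26), Ighv11-2 (-0.059), Ighv4-1 (-0.99) and Ighv7-1 (-1.97) under quantile normalization, Ighv7-1 (-0.14) on VH junctions, and Ighd2-3 on D and VH junctions (0.077) and without Ighj2 reads (0.24, where it passed). The causes were not tested.

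Deviations of same-numbered libraries from their group means correlated at 0.252, 0.0742 and 0.278 over 69 segments. Those of other-numbered libraries correlated at -0.364 to 0.128, so these values do not settle whether the numbers mark pairs. The main comparison took no pairing. With the replicate number as a block 114 VH and 9 D segments were called, and no call of a named segment changed. The VH share differed by 2.94 and the distal share by 53.8 percentage points, as without the block over the 3 treated libraries singly. That equality is fixed by arithmetic and says nothing about pairing. With replicates 1 and 2 averaged the differences were 3.15 and 53.7. Depth limits the most distal genes, at 0 to 3 untreated junctions.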

Other observations

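Junctions outside the VH, D and JH segments also differed between the libraries. On the constant-region side of JH they took 0.0840%, 0.113% and 0.106% of all junctions without IAA/Dox and 0.515%, 0.600% and 0.639% with it, without overlap. Beyond the last VH gene they took 0%, 0.000459% and 0.000368% without and 0.00973%, 0.00927% and 0.00983% with IAA/Dox. Between JH and D they took 0.0338% ± 0.00935 (n = 3) and 0.0432% ± 0.0119 (n = 2), with overlap.

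The share outside chromosome 12 was 0.977%, 0.671% and 0.765% without and 0.263%, 3.15% and 3.57% with IAA/Dox. Treated replicates 1 and 2, whose VH and D segments did not differ beyond counting error, thus lay on opposite sides of the untreated libraries in this share. The median length of these prey alignments was 82 bases in treated replicate 1 and 39 to 42 in the other 5 libraries.

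Among VH joints of Ighv5-2 with a D match, Ighd4-1 was matched in 3.29%, 4.96% and 3.74% without and 9.52%, 13.5% and 15.2% with IAA/Dox.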
